A study of Mus musculus with 20 samples.

Results

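The 40 genes described here are a list of genes that cells switch on in response to type I interferon. They were taken by name from the 55573 genes in the count tables, and all 40 stood among the 16509 genes that passed a filter on low counts, which keeps a gene with counts in enough libraries for a test. A gene can pass that filter through the group where it is high. RNA was sequenced in 20 libraries of bone marrow cells from C57BL/6 mice aged 7 to 9 weeks, to compare cell types and leptin receptor status. Cells without lineage antigens and with Sca-1 and c-Kit were sorted into CD150+CD48- haematopoietic stem cells (HSC) and CD150-CD48- multipotent progenitors (MPP). Each type was then divided by antibody into cells that carried leptin receptor on the surface (Lepr+) and cells that did not (Lepr-). The 4 groups, HSC and MPP each with and without surface Lepr, had 5 libraries each, and no group had a mutation, a drug or an interferon treatment named in the labels. Each library came from 1000 to 8000 sorted cells of 2 mice, so the spread within a group is a spread between pools of mice and the libraries made from them. Replicates 1 to 5 recur in all 4 groups and were read as pairs, although a pool of mice shared by the 4 libraries of a number is not stated outright.

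Type I interferons are secreted proteins, the many interferon alphas and interferon beta among them, that bind a receptor made of Ifnar1 and Ifnar2. The receptor's kinases Jak1 and Tyk2 activate a complex that holds Stat2 and Irf9 and binds an interferon-stimulated response element (ISRE) in the promoters of the response genes. The products sense foreign RNA and DNA, cut or trap viral RNA, block entry and release of viruses, and raise or damp the signal itself. Stem cells of the bone marrow are known to express part of these genes without infection, and type I interferon is known to drive resting HSC into division.

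Promoter sequence shows what many of these genes share beyond the name of the list. RefSeq promoter windows (GRCm38.p6, from 250 bases before to 50 after the start) were at hand for 30 of the 40 members. The letters GAAANNGAAA, the core of an ISRE, were searched on both strands and counted wherever they occurred, overlaps included. They stood in the windows of 14 of those 30 members (46.7%), against 3.99% of the 27025 genes with a window of this length. A match is a run of letters and not a measured binding site. Isg15, which encodes a ubiquitin-like protein and was among the genes with the smallest p-values in the cell type comparison below, held 3 overlapping ISRE cores, which begin 78, 72 and 66 bases before its start. The 250 bases before that start (chr4:156200819-156201068, minus strand) are printed with those cores in capitals.
Isg15: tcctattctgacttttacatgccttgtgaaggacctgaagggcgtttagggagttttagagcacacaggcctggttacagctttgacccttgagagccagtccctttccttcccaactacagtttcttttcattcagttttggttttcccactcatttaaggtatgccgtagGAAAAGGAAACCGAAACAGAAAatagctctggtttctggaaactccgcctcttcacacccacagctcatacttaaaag

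Single ISRE cores, in capitals with 10 bases on each side, show how the other families carry the element. One core is printed for each gene, the farthest from the start. Bst2, Ifit3, Ifit3b, Ifit1 and Trim30a hold a second, and that of Bst2 overlaps the printed one and runs on in lower case. The genes were chosen after the values of the genes were seen, and each is written 5′ to 3′ on the strand that carries the match.
Oas3 (chr5:120777715-120777744, 75 bases before the start): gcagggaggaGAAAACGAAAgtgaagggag
Trim30a (chr7:104465210-104465239, 36 bases before, opposite strand to the gene): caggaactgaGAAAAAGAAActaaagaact
Bst2 (chr8:71537583-71537612, 130 bases before): ggcattccagGAAAATGAAActgaaaggct
Stat2 (chr10:128270266-128270295, 222 bases before, opposite strand): ctagggaaagGAAACTGAAAccagggtgcg
Rsad2 (chr12:26456553-26456582, 120 bases before, opposite strand): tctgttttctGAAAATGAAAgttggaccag
Ifit3 (chr19:34583363-34583392, 156 bases before, opposite strand): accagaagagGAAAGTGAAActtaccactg
Ifit3b (chr19:34607759-34607788, 188 bases before, opposite strand): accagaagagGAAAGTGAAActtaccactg
Ifit1 (chr19:34640775-34640804, 104 bases before, opposite strand): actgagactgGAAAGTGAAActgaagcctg
Ifit3 and Ifit3b, neighbours on chromosome 19, carried the same 30 bases. Irf9, Irf7, Xaf1 and Ifi44, which are described at length below, had no match in their windows, and Rtp4 and Dhx58 were among the 10 members with no window.

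The libraries held 9532993 to 31589794 counts in genes, with a median of 20981095.5. Drawn down to 9532993 counts, each library detected between 14761 and 20790 genes. Replicate 4 of Lepr+ MPP resembled the other libraries of its group least (mean correlation 0.815), followed by replicate 5 of Lepr+ HSC (0.837) and replicate 5 of Lepr+ MPP (0.858). Kit, the receptor used in the sort, was read in every library, and the HSC marker Slamf1, which encodes CD150, averaged 46.6 and 41.4 CPM (counts scaled to the size of the library) in Lepr- and Lepr+ HSC and 5.12 and 5.03 CPM in Lepr- and Lepr+ MPP. Summed over a list of 18 stromal markers, the level ran from 46.1 to 336 CPM in the other 3 groups and from 230 to 4447 CPM in Lepr+ MPP, where replicate 5 was highest. B and plasma cell markers summed to between 52.1 and 665 CPM outside Lepr+ MPP and reached 4533 CPM in it. The 11 markers of plasmacytoid dendritic cells, known as the main producers of interferon alpha, summed to between 95.0 and 323 CPM. Of these 5 could be tested, while Siglech had 0 counts in 16 libraries and Tlr9 in 18.

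Members differed widely in level. Per kilobase of exon, the scale on which genes can be compared, Ifitm3, whose protein blocks the fusion of viruses with the cell, averaged 1264 CPM per kb over the 20 libraries. Lgals3bp, a secreted glycoprotein (140 CPM per kb), Bst2, which tethers budding virus to the cell (114 CPM per kb), and Rtp4, a chaperone of membrane receptors (68.5 CPM per kb), followed. At the low end stood Mx1 and Mx2, genes of the dynamin-like GTPase family, at 0.850 and 0.811 CPM per kb. The annotation used, GENCODE M21, types Mx2 as a polymorphic pseudogene. Herc6, the ligase that attaches Isg15, stood at 1.22 CPM per kb, and Ifit3b at 1.23 CPM per kb. Mx1 had 0 counts in 7 libraries, Mx2 in 4, Oas2 and Ifit3b in 2 each, and Oasl1 and Ifit3 in 1 each. A count of 0 allows up to 3 counts, which is 0.08705 to 0.338 CPM depending on the library and covers counting error only.

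**Figure D1:**
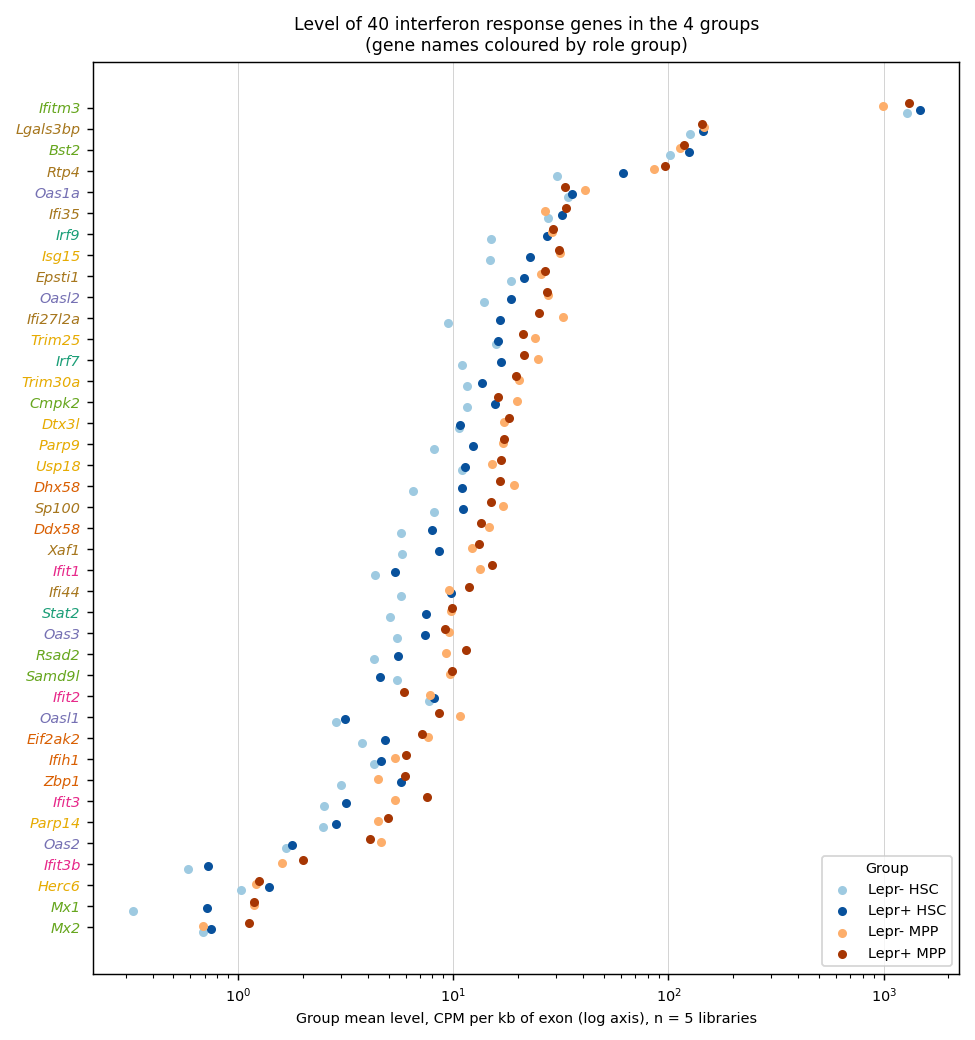
Mean level of each of the 40 genes in the 4 groups, in CPM per kilobase of exon on a log axis, with gene names coloured by role. Ifitm3 lies above all other members at a mean of 1264 CPM per kb, and Mx1 and Mx2 lie lowest at 0.850 and 0.811 CPM per kb.

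Many members are neighbours or copies of each other. In GENCODE M21 on GRCm38, Ifit2, Ifit3, Ifit3b and Ifit1 lie within chr19:34550694-34650009, Oas2, Oas3 and Oas1a within chr5:120730333-120907521, and Oasl2 and Oasl1 within chr5:114896936-114937915. Parp14, Dtx3l and Parp9 share chr16:35832874-35972605, and Rsad2 and Cmpk2 share chr12:26442746-26479837. Of the distinct 50-base words in its transcripts, Oas1a shared 57.6% with other genes, all with its copy Oas1g, while Ifit3 and Ifit3b shared 51.2% and 45.0%, almost all with each other. Counts of these 3 genes are uncertain, because reads without strand and without a unique place can be divided among copies or lost. Dtx3l and Parp9 also overlap head to head, with 8.0% and 9.40% of their exon bases shared. Dhx58 overlaps an antisense gene over 4.31% of its exon bases, and reads in such stretches cannot be assigned to a strand. Over 10% of exon bases were shared with another gene in 3 members. These were Ifi35 (16.8%, with Gm11626), Rtp4 (13.9%, with Gm45338) and Herc6 (13.7%, with Gm45193), and their counts there are uncertain too.

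The mean of the 40 genes varied in much the same way over the replicates of each group. On the log2 CPM scale, the mean over the 40 genes was 5.17, 4.21, 4.80, 3.59 and 4.33 in Lepr- HSC replicates 1 to 5, and 5.65, 4.10, 5.32, 4.06 and 4.19 in Lepr+ HSC. In Lepr- MPP it was 5.91, 5.61, 5.72, 4.54 and 5.30, and in Lepr+ MPP 5.93, 5.61, 5.74, 4.39 and 5.21. Replicate 1 was highest, replicate 3 second and replicate 4 lowest in each of the 4 groups, and the range within each group was wider than the difference between any 2 group means. The order is not particular to these genes. In the mean over all 16509 tested genes, replicate 1 was also highest and replicate 3 second in each group, and replicate 4 was lowest except in Lepr+ HSC. The summed CPM of the 40 genes was highest in replicate 1 of both Lepr- groups and in replicate 5 of both Lepr+ groups. Replicate 1 was also the library with the most genes detected at equal depth in each group, and the part of detection in the order of the libraries was not tested. Single genes departed from the mean. Parp14, which adds ADP-ribose to proteins, followed it closely, with 60.5 CPM in Lepr+ HSC replicate 1 and 6.75 CPM in replicate 4. Rtp4 ran the other way in the same pair of libraries, with 103.6 and 130.6 CPM.

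**Figure D2:**
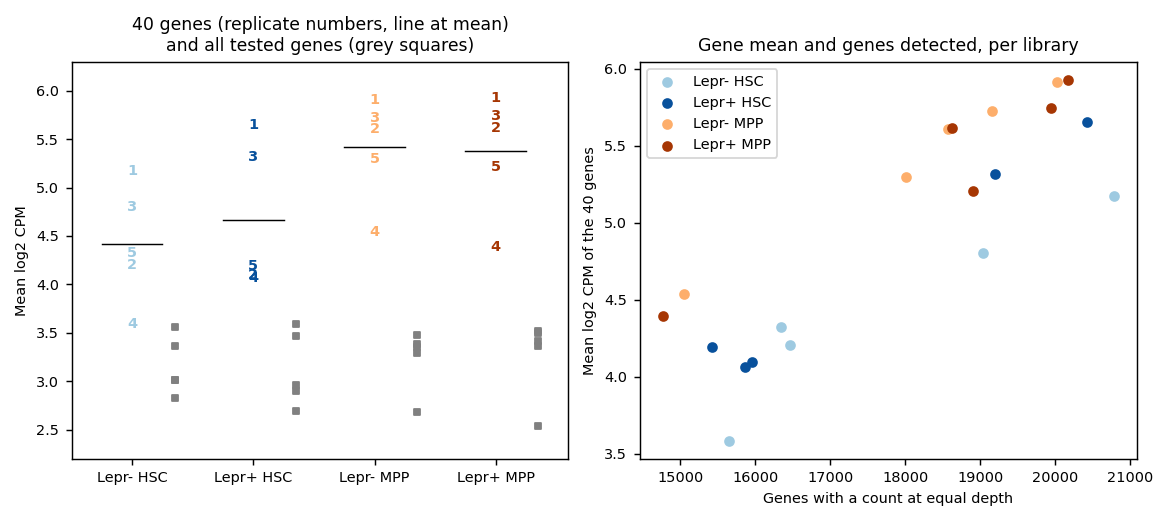
Left, mean log2 CPM of the 40 genes in each library (numbers mark replicates, lines the group means) with the mean over all 16509 tested genes as grey squares. Right, the same mean of the 40 genes against the number of genes with a count at an equal depth of 9532993. Replicate 1 is highest and replicate 4 lowest in every group, and the group means run from 4.42 in Lepr- HSC to 5.42 in Lepr- MPP.

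Averaged over the pairs, the mean of the 40 genes was higher in Lepr+ than in Lepr- HSC by 0.25 ± 0.34 (SD of 5 pair differences, log2 scale) and higher in 3 of 5 pairs. Between Lepr+ and Lepr- MPP the difference was -0.04 ± 0.08, also higher in 3 of 5 pairs. Lepr- HSC lay below Lepr- MPP, at -0.998 ± 0.25, and Lepr+ HSC below Lepr+ MPP, at -0.71 ± 0.54, each in 5 of 5 pairs. The mean over all tested genes differed by -0.04, 0.03, -0.08 and -0.14 in the same 4 comparisons. No p-value is given for this mean, since its members were chosen together.

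Irf9 was the one member that passed the test between Lepr+ and Lepr- HSC. It encodes the subunit through which the complex with Stat2 recognises DNA, and lies at chr14:55603571-55610030 (ENSMUSG00000002325.15). In Lepr- HSC it was read at 96.0, 69.8, 76.3, 100.3 and 60.65 CPM in replicates 1 to 5, and in Lepr+ HSC at 130.5, 121, 140.3, 159 and 186 CPM. Every Lepr+ HSC library lay above every Lepr- HSC library, and the means, 147 ± 25.6 and 80.6 ± 17.0 CPM (SD, n = 5 each), differed by more than either SD. The rise was 0.87 ± 0.17 (log2 ± SE, adjusted p = 0.0411 by edgeR's quasi-likelihood test with Benjamini-Hochberg adjustment over 16509 genes), higher in 5 of 5 pairs. With the replicate number as a block, the adjusted p was 0.00974, and over 43 alternatives it ran from 5.28e-06 to 1, while the log2 difference stayed between 0.69 and 1.02. The call held in 16 of those 43 and was lost in 27, among them the edgeR fits without each of the 5 replicate numbers in turn. Leaving out 1 library at a time, it held without Lepr- HSC replicate 1, Lepr- HSC replicate 4, Lepr+ HSC replicate 2, Lepr+ MPP replicate 4 or Lepr+ MPP replicate 5, and not without any of the other 15. Within the libraries dated June the difference was 0.98 and within those dated July 0.76, neither past the threshold. In a sorted sample, fewer cells with a transcript and less transcript per cell cannot be told apart.

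Rtp4 rose between the same groups only in the fit with the block. Its product escorts receptors to the cell surface and is known as a brake on interferon responses, and the gene lies at chr16:23520291-23614222 (ENSMUSG00000033355.6). In order of replicate, its level was 74.5, 45.9, 35.4, 83.3 and 84.05 CPM in Lepr- HSC, and 103.6, 102.0, 77.2, 130.6 and 243 CPM in Lepr+ HSC. Each Lepr+ library exceeded its Lepr- partner, but Lepr+ replicate 3 lay below Lepr- replicates 4 and 5. The difference was 1.02 ± 0.30 (log2 ± SE, edgeR adjusted p = 0.271), with an adjusted p of 0.00936 under the block and of 7.10e-06 to 1 over 43 alternatives. Lepr+ HSC replicate 5 stood far above the rest, and without it the log2 difference was 0.68 (edgeR adjusted p = 0.593).

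Over the whole list, 1 of 40 members passed between Lepr+ and Lepr- HSC, where 0.103% of all tested genes did (0.0969% higher), and with the block 2 of 40 did, against 1.02% of all. Of the 40 log2 differences 39 were positive, with a median of 0.35 and a range from -0.27 to 1.14, while 49.6% of all tested genes were positive and their median was -0.004. The members with positive differences numbered 39 under each of the other scalings of library size, and 25 to 40 over 43 alternatives, with medians from 0.21 to 0.57. Single libraries set both ends, since without Lepr+ HSC replicate 1 the median was 0.21 with 25 positive, and without Lepr- HSC replicate 1 it was 0.57 with 40 positive. At an unadjusted p under 0.05 stood 6 members, all higher (4.73% of all tested genes), and 11 members were higher in Lepr+ HSC in all 5 pairs, which 6.83% of all tested genes were. Irf9 was the only member whose 2 groups did not overlap, which held for 0.999% of tested genes in that direction. Within June libraries the median was 0.44 and within July libraries 0.36.

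The other signal genes stood on the same side without passing the test. Irf7, a factor that drives production of further interferon, had 63.9, 34.4, 44.9, 29.2 and 33.8 CPM in Lepr- HSC and 78.9, 30.1, 65.9, 51.5 and 87.5 CPM in Lepr+ HSC. The groups overlapped, replicate 2 went the other way, and the difference was 0.60 ± 0.27 (log2 ± SE, edgeR adjusted p = 0.662). Stat2, the partner of Irf9, averaged 29.99 ± 14.5 CPM in Lepr- and 44.4 ± 23.8 CPM in Lepr+ HSC (SD, n = 5 each).

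All 5 sensors had positive differences, with a median of 0.48, and none passed. Dhx58, which encodes the RNA-binding helicase LGP2, was higher in 5 of 5 pairs. It had 31.6, 23.6, 25.2, 8.31 and 17.1 CPM in Lepr- HSC and 44.4, 35.2, 47.8, 21.6 and 30.4 CPM in Lepr+ HSC. Its difference of 0.76 ± 0.35 (log2 ± SE, edgeR adjusted p = 0.674) came from groups that overlapped. Zbp1, a sensor of nucleic acid in the left-handed Z form, averaged 10.6 ± 2.83 and 20.2 ± 8.18 CPM (SD, n = 5 each) and was higher in 4 of 5 pairs. Ddx58, which encodes the RNA sensor RIG-I, had the most counts of the sensors, though Dhx58 was higher per kilobase (13.3 against 10.4 CPM per kb over all libraries). It averaged 40.1 ± 25.6 and 56.1 ± 25.2 CPM in the same groups, and Ifih1 and Eif2ak2 had differences of 0.12 and 0.36.

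No effector passed. The OAS genes belong to a family named after enzymes whose oligoadenylates activate an RNA-cutting enzyme. They had 5 of 5 positive differences with a median of 0.13. The IFIT genes, whose proteins bind foreign RNA ends, had 4 of 4 positive with a median of 0.32. Among the other antiviral effectors 6 of 7 were positive, with a median of 0.28. Samd9l was the negative one, at -0.27 ± 1.07 (log2 ± SE), and Mx1 had the highest value of the 40, at 1.14 ± 1.76, higher in 2 of 5 pairs and at 0 counts in the others. Cmpk2, a mitochondrial nucleotide kinase, was higher in 5 of 5 pairs, at 48.1 ± 8.79 CPM in Lepr- and 64.9 ± 6.05 CPM in Lepr+ HSC (SD, n = 5 each). Ifit1 shows how wide the spread was, with 34.9, 0.0514, 35.98, 0.152 and 0.315 CPM in Lepr+ HSC replicates 1 to 5.

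The genes of the Isg15 system, of ubiquitin ligases and of ADP-ribosylation were positive in 8 of 8 cases, with a median of 0.21. Isg15 had 11.8, 5.01, 9.10, 11.8 and 18.5 CPM in Lepr- HSC and 19.98, 11.8, 14.6, 16.01 and 23.8 CPM in Lepr+ HSC. It was higher in 5 of 5 pairs, but Lepr- replicate 5 exceeded 3 Lepr+ libraries (0.62 ± 0.31, log2 ± SE, edgeR adjusted p = 0.757). Usp18, which removes Isg15 and damps the receptor, differed by 0.06 and Trim25, a ligase that activates RIG-I, by 0.04. Of the remaining members 8 of 8 were positive, with a median of 0.51. Ifi44, whose function is little known, averaged 34.9 ± 8.57 and 59.6 ± 20.7 CPM, at 0.77 ± 0.25 (log2 ± SE, edgeR adjusted p = 0.342). Xaf1, which opposes inhibitors of cell death, was higher in 5 of 5 pairs at 0.57 ± 0.28.

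**Figure D3:**
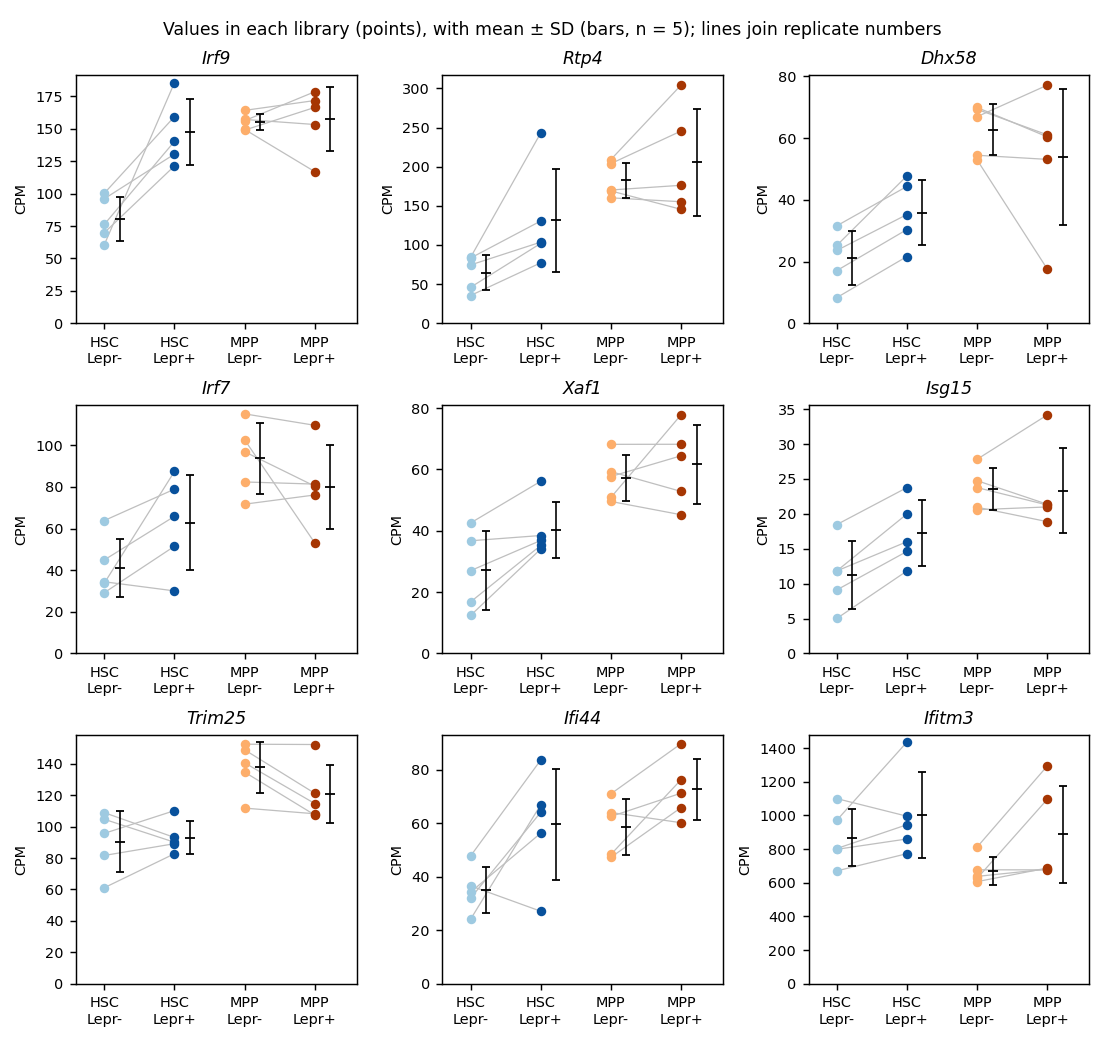
CPM of 9 genes in every library, with group means and SD as bars and thin lines that join the same replicate number across groups. Irf9 separates Lepr- HSC (60.65 to 100.3 CPM) from Lepr+ HSC (121 to 186 CPM), while the other panels show overlapping groups in HSC.

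Markers of other cells are given beside these values. The summed level of 12 stem cell markers was 1801 to 2634 CPM in Lepr- and 2936 to 3570 CPM in Lepr+ HSC, without overlap. Of the 12, 2 rose, Procr and Hlf, and with the block 5 did. The monocyte and macrophage markers summed to 447 to 670 CPM in Lepr- and 538 to 847 CPM in Lepr+ HSC and the stromal markers to 46.1 to 311 and 70.5 to 336 CPM, both higher in 5 of 5 pairs. Plasmacytoid dendritic markers summed to 99.7 to 161 and 95.0 to 210 CPM. Endothelial markers summed to 346 to 594 and 512 to 822 CPM, higher in 4 of 5 pairs, with 12 of 13 tested genes positive and Robo4 called with the block. T and NK cell markers summed to 99.1 to 231 and 53.9 to 152 CPM, lower in 5 of 5 pairs, with Nkg7 called with the block. The 4 tested genes of that list did not move together, with 2 positive, 2 negative and a median of 0.22. Mitochondrial genes held 1.06% to 1.99% of the counts in Lepr- and 1.24% to 2.28% in Lepr+ HSC, higher in 5 of 5 pairs. B and plasma cell markers summed to 52.1 to 117 CPM in Lepr- and 57.75 to 665 CPM in Lepr+ HSC, higher in 2 of 5 pairs. Of the 9 tested genes of that list 6 were positive, and 1 was called higher with the block (1.02% of all tested genes). No marker of the stromal or plasmacytoid lists passed in this comparison, and the part of other cells and of RNA quality in the differences was not tested.

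Between Lepr+ and Lepr- MPP no member passed, where 0.2% of all tested genes did. No member reached an unadjusted p under 0.05 either, which 4.41% of all tested genes did, and DESeq2, limma voom and the fit with the block (0.103% of tested genes) called 0 members too. The 40 differences had a median of 0.02, with 23 positive and a range from -0.38 to 0.71, beside a median of 0.01 and 51.3% positive over all tested genes. Over 43 alternatives the median took either sign, from -0.11 without Lepr- MPP replicate 4 to 0.20 without the 3 libraries least like the rest of their groups. In MPP, Irf9 had 164, 149, 156, 157 and 149 CPM without and 172, 167, 179, 153 and 117 CPM with surface Lepr, at 0.02 ± 0.17 (log2 ± SE). The groups overlapped, and Lepr+ replicate 5 was the lowest of the 10 libraries.

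By role, medians in MPP lay between -0.17 and 0.25. The OAS genes were negative in 5 of 5 cases with a median of -0.17, although Oasl2 turned to 0.01, as did Isg15, under the size factors used by DESeq2. Oas1a was lower in Lepr+ MPP in 5 of 5 pairs, at 77.1 ± 12.2 CPM without and 62.6 ± 8.498 CPM with surface Lepr (SD, n = 5 each; -0.30 ± 0.18, log2 ± SE). Trim25 was also lower in 5 of 5 pairs (138 ± 16.1 and 121 ± 18.5 CPM, -0.19 ± 0.17), and these 2 of 40 members compare with 6.53% of all tested genes lower in all 5 pairs. No member's 2 groups were without overlap, against 1.19% of tested genes higher and 0.448% lower. Ifitm3 had 677, 607, 638, 626 and 812 CPM in Lepr- MPP and 677, 687, 681, 1096 and 1294 CPM in Lepr+ MPP. Its difference of 0.40 ± 0.22 (log2 ± SE) came mostly from replicates 4 and 5, the 2 Lepr+ MPP libraries that resembled their group least, which also held 1437 and 4447 CPM of stromal markers in sum and 3.03% and 4.46% of counts in mitochondrial genes. Replicate 2, with 1214 CPM of stromal markers, had 687 CPM of Ifitm3. The part of other cells was not tested here either. The other members with the smallest p-values in MPP, at log2 differences from -0.28 to 0.41, were Ifi44, Cmpk2, Zbp1, Ifi35 and Irf7, and each had groups that overlapped.

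The 5 members that passed between Lepr- HSC and Lepr- MPP were all lower in the stem cells. They were Irf9, Rtp4, Dhx58, Irf7 and Xaf1, and they make 5 of 40 where 2.73% of all tested genes passed (1.51% lower). With the block 15 of 40 fell and none rose, against 7.5% of all tested genes (3.43% lower). Of the 40 differences 37 were negative, with a median of -0.89 and a range from -1.90 to 0.37, beside a median of 0.01 and 50.5% positive over all tested genes. With library sizes alone, without scaling factors, the median of all genes moved to -0.10 and that of the members to -0.99. At an unadjusted p under 0.05 stood 19 members, all lower (6.05% of all tested genes). Lower in all 5 pairs were 24 members, which 11.2% of all tested genes were, and 11 members had no overlap between the groups, against 3.43% of tested genes in that direction. This comparison and the one between Lepr+ and Lepr- HSC share the 5 Lepr- HSC libraries.

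Irf9 fell by 0.95 ± 0.17 on the log2 scale (SE, edgeR adjusted p = 0.00230), from 149 to 164 CPM in the 5 Lepr- MPP libraries to the 60.65 to 100.3 CPM given above for Lepr- HSC. Irf7 had 115, 82.4, 96.9, 103 and 71.7 CPM in Lepr- MPP, all above the highest Lepr- HSC library at 63.9 CPM. It fell by 1.18 ± 0.28 (log2 ± SE, edgeR adjusted p = 0.0193). Irf7 lies at chr7:141262706-141266481 (ENSMUSG00000025498.15). Stat2 was lower in 5 of 5 pairs at -0.94 ± 0.58, with groups that overlapped.

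Dhx58 (chr11:100694884-100704271, ENSMUSG00000017830.15) had 66.9, 69.3, 54.4, 52.9 and 69.9 CPM in Lepr- MPP, at least 52.9 CPM in each, while no Lepr- HSC library exceeded 31.6 CPM. It fell by 1.57 ± 0.35 (log2 ± SE, edgeR adjusted p = 0.0161). Rtp4 had 170, 169, 160, 204 and 209 CPM in Lepr- MPP, again without overlap with Lepr- HSC. It fell by 1.498 ± 0.30 (log2 ± SE, edgeR adjusted p = 0.00752). Xaf1 (chr11:72301629-72313733, ENSMUSG00000040483.15) had 57.7, 59.3, 49.6, 68.2 and 50.9 CPM in Lepr- MPP and 42.5, 12.4, 27, 36.8 and 16.8 CPM in Lepr- HSC. It fell by 1.07 ± 0.28 (log2 ± SE, edgeR adjusted p = 0.0409), the least secure of the 5, since it lost the call in 23 of 43 alternatives, against 11 for Irf7, 5 for Dhx58, 3 for Rtp4 and 2 for Irf9. Without Lepr- HSC replicate 2 or without Lepr- MPP replicate 1 the count of members called was 3, and without Lepr+ MPP replicate 4 it was 9.

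The 10 members called with the block and not in the same edgeR fit without it were Trim25, Ifi27l2a, Isg15, Cmpk2, Oasl2, Trim30a, Ifi44, Parp9, Ddx58 and Sp100. Their edgeR adjusted p ran from 0.0557 to 0.319 without the block and from 0.00337 to 0.0406 with it, and over 43 alternatives for each gene from 1.24e-05 to 1. Of these 10, DESeq2 without a block called Trim25, Ifi27l2a, Isg15, Cmpk2, Oasl2 and Trim30a, and limma voom Trim25, Ifi27l2a and Isg15. All 10 were lower in 5 of 5 pairs. Isg15 had 23.8, 20.6, 20.95, 27.8 and 24.8 CPM in Lepr- MPP, above all 5 Lepr- HSC libraries, at -1.07 ± 0.31 (log2 ± SE). Trim25, at -0.61 ± 0.17, and Trim30a, a ligase that restrains inflammatory signalling, at -0.79 ± 0.25, also did not overlap. Ifi27l2a, a small mitochondrial protein, averaged 4.37 ± 2.47 CPM in the stem cells and 14.9 ± 3.59 CPM in the progenitors (SD, n = 5 each), again apart. Ddx58 and Sp100, a nuclear body protein, averaged 40.1 and 61.3 CPM in Lepr- HSC and 103 and 128 CPM in Lepr- MPP, with groups that overlapped.

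By role, 2 of 3 signal genes, 1 of 5 sensors and 2 of 8 other induced genes passed, and 0 of the OAS, IFIT, antiviral effector and Isg15 system genes did. With the block the counts were 2 of 3 signal genes, 2 of 5 sensors, 1 of 5 OAS genes, 0 of 4 IFIT genes, 1 of 7 antiviral effectors, 4 of 8 genes of the Isg15 system and 5 of 8 others. Of all tested genes 2.73% passed without the block and 7.5% with it. The IFIT genes had the most negative median, -1.28, and wide errors. Oasl1, at 7.44 ± 3.89 and 27.9 ± 7.15 CPM, and Rsad2, whose enzyme viperin makes a nucleotide that stops viral RNA synthesis, at 18.6 ± 7.76 and 40.1 ± 6.97 CPM (SD, n = 5 each), had groups without overlap and did not pass. Groups lay apart in that direction for 3.43% of all tested genes. The 3 positive members were Ifitm3 at 0.37 ± 0.22, higher in 5 of 5 pairs, Ifi35 at 0.05 and Mx2 at 0.01, and the last 2 turned negative with library sizes alone.

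**Figure D4:**
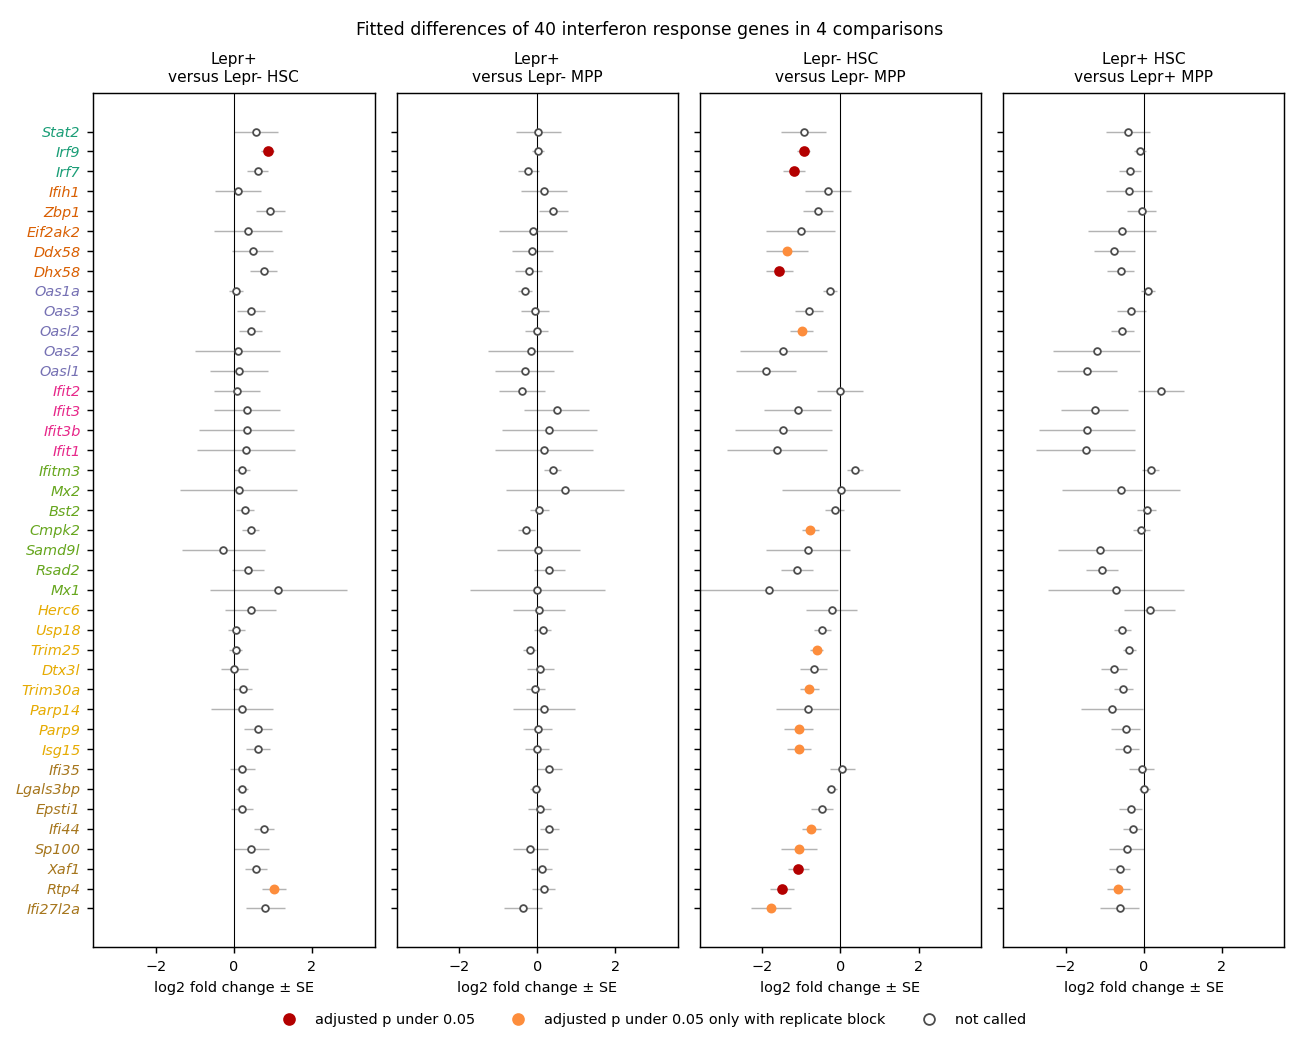
Log2 differences with SE for the 40 genes in the 4 comparisons. Filled red points passed an adjusted p of 0.05, orange points passed with the replicate block alone, and open points did not pass. Irf9 is the red point for Lepr+ against Lepr- HSC, and 5 red and 10 orange points, all below 0, stand for Lepr- HSC against Lepr- MPP.

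Beside these values, the plasmacytoid dendritic list was lower in Lepr- HSC than in Lepr- MPP in 5 of 5 pairs, at 99.7 to 161 against 105 to 296 CPM in sum, most of it Tcf4 and Runx2. The 5 of its 11 genes that could be tested were all negative, with a median of -3.97. Runx2 fell by 1.21 ± 0.24 (log2 ± SE, edgeR adjusted p = 0.00587), and Tlr7, a sensor of RNA in endosomes, was called with the block as well (edgeR adjusted p = 0.0225, and 0.186 without it), at means of 0.108 and 5.27 CPM. Ccr9 and Ly6d averaged 0.141 and 0.271 CPM in Lepr- HSC and 4.77 and 4.32 CPM in Lepr- MPP. B and plasma cell markers summed to 52.1 to 117 CPM in Lepr- HSC and 155 to 318 CPM in Lepr- MPP. The 12 stem cell markers summed to 1801 to 2634 CPM in Lepr- HSC and 2213 to 2917 CPM in Lepr- MPP, lower in HSC in 5 of 5 pairs. Of these 12, 5 were positive and 7 negative. Called were 2 higher and 3 lower, and with the block 2 and 4, against 2.73% and 7.5% of all tested genes. The part of other cells in these differences was not tested.

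Among cells with surface Lepr, no member passed between HSC and MPP in edgeR without the block, where 0.466% of all tested genes did. DESeq2 and limma voom without the block also called 0, and 7 members reached an unadjusted p under 0.05, all lower in HSC (3.76% of all tested genes). With the block 1 member fell, Rtp4, against 1.77% of all tested genes. Its values were 176, 145, 155, 245 and 304 CPM in Lepr+ MPP beside 103.6, 102.0, 77.2, 130.6 and 243 CPM in Lepr+ HSC, lower in 5 of 5 pairs but overlapping. The difference was -0.65 ± 0.30 (log2 ± SE, edgeR adjusted p = 0.614, and 0.0485 with the block, with a range from 0.00346 to 1 over 43 alternatives). Over the list 34 of 40 differences were negative, with a median of -0.49, beside -0.02 and 48.4% positive over all tested genes. Lower in all 5 pairs were 10 members, which 5.68% of all tested genes were, and no member's groups were without overlap, against 1.11% higher and 1.02% lower.

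The members nearest to the threshold here were Rsad2 (-1.06 ± 0.41), Usp18 (-0.55 ± 0.22), Trim25 (-0.38 ± 0.17), Xaf1 (-0.62 ± 0.28) and Dtx3l, a ligase that pairs with Parp9 (-0.76 ± 0.35), all log2 ± SE and all lower in 5 of 5 pairs. Their edgeR adjusted p ran from 0.419 to 0.604. Trim30a (-0.52 ± 0.24) came next, and Oasl1 (-1.45 ± 0.77) was lower in 4 of 5 pairs. Usp18 had 39.8, 31.1, 31.1, 27.1 and 29.7 CPM in Lepr+ HSC and 47.5, 40.6, 41.5, 66.9 and 35.2 CPM in Lepr+ MPP. Only Lepr+ MPP replicate 5 fell inside the range of the HSC libraries. Irf9, in contrast, had nearly the same level in both Lepr+ types. Its means were 147 ± 25.6 CPM for HSC and 157 ± 24.5 CPM for MPP (SD, n = 5 each), a difference of -0.10 ± 0.17. All 18 stromal markers were lower in Lepr+ HSC (median log2 difference -2.98), 1 of them called, with the block only. The 5 tested plasmacytoid dendritic markers were lower too, 1 of them called. Their list summed to 95.0 to 210 against 230 to 323 CPM, without overlap. B and plasma cell markers were lower in sum in 5 of 5 pairs, and erythroid markers higher in 5 of 5. The part of other cells was not tested in this comparison.

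Whether the effect of surface Lepr differed between HSC and MPP was tested as the difference of the 2 effects. No member passed, in edgeR with or without the block, DESeq2 or limma voom, nor did any other gene in edgeR (0% of all tested genes), and DESeq2 with the block called 1, Irf9. At an unadjusted p under 0.05 stood Irf9 (0.85 ± 0.23), Irf7 (0.83 ± 0.38) and Cmpk2 (0.71 ± 0.32), all log2 ± SE and with the larger effect in HSC (1.54% of all tested genes). The edgeR adjusted p of Irf9 was 0.886. Behind them came Rtp4 (0.85 ± 0.42), Dhx58 (0.98 ± 0.49), Ifi27l2a (1.15 ± 0.70), Isg15 (0.63 ± 0.43) and Oas1a (0.36 ± 0.26). Over the 40 members the median was 0.41 with 32 positive, beside a median of -0.02 over all tested genes. Over 42 alternatives the median ran from 0.16, in the July libraries, to 0.59, without Lepr- HSC replicate 1, and without Lepr+ HSC replicate 1 it was 0.21 with 26 positive. These values show no difference between the cell types past the threshold, and their errors leave room for one.

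Other genes of the pathway were read from a second list of 54. The interferons themselves had almost no counts. Of 18 ligand genes 16, Ifnb1 and all the alpha interferons on the list except Ifnab among them, had 0 counts in all 20 libraries. Ifnab and Ifnk had 21 and 13 counts in total. The limit given above for a count of 0 applies to each library and covers counting error only. Reads without a unique place made up 7.27% to 15.2% of the counts and were given to no gene. Sequence shared among the interferon genes was not checked, so reads lost from them in this way were not measured. Of the 34 other genes that could be tested, 0 passed between Lepr+ and Lepr- HSC, where 0.103% of all tested genes did, and 0 between Lepr+ and Lepr- MPP, where 0.2% did. In HSC 25 of 34 were positive with a median of 0.39, and in MPP 16 of 34 with a median of -0.01, beside 49.6% and 51.3% of all tested genes. At an unadjusted p under 0.05 stood 10 in HSC, all higher (4.73% of all tested genes), and 2 in MPP (4.41%).

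Between Lepr- HSC and Lepr- MPP, 6 of the 34 fell and none rose, and with the block 10 fell, against 1.51% and 3.43% of all tested genes. The receptor subunit Ifnar2 had 59.6, 63.2, 67.6, 61.6 and 63.9 CPM in Lepr- HSC and 122, 148, 131, 116 and 111 CPM in Lepr- MPP, without overlap. It fell by 0.99 ± 0.17 (log2 ± SE, edgeR adjusted p = 0.00214). Its partner Ifnar1 averaged 51.8 ± 11.2 and 99.0 ± 10.99 CPM (SD, n = 5 each) and passed only with the block (edgeR adjusted p = 0.0631 without it and 0.0105 with it). Tmem173, the adaptor STING that signals from DNA sensing to interferon, had 60.0, 47.5, 30.8, 44.4 and 63.9 CPM in Lepr- HSC and 159 to 171 CPM in Lepr- MPP. It fell by 1.76 ± 0.19 (edgeR adjusted p = 2.40e-05), and it was the one gene of this list that also fell between Lepr+ HSC and Lepr+ MPP, by 1.02 ± 0.18 (edgeR adjusted p = 0.0140).

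The others that fell in Lepr- HSC were the interferon gamma receptor subunits Ifngr1 (-0.90) and Ifngr2 (-1.34) and the transcription factors Irf1 (-0.93) and Irf5 (-1.24), with edgeR adjusted p between 0.00451 and 0.0141. With the block the sensor Tlr7, the signal inhibitor Socs3 and the phosphatase Ptpn6 were added. Irf3, the factor that first switches on interferon beta, averaged 66.9 and 64.3 CPM in HSC without and with surface Lepr and 77.0 and 46.3 CPM in the corresponding MPP, and passed in no comparison.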

How the data were processed

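The deposited tables gave 1 file of raw counts per library, in which the authors counted read pairs per gene. Per the submitters' processing notes reads were handled with STAR 2.7.1a and HTSeq 0.11.2 on GRCm38, with cutadapt 2.1, FastQC 0.11.8 and DESeq2 also named, and the counting mode is not given in the sources used here. Per the labels' protocols cDNA came from a SMART-Seq v4 kit and libraries from Nextera XT, without strand. Lines that name no gene held 21.4% to 38.7% of the counts and were left out. Identifiers were matched to GENCODE M21 symbols without their version (55480 of 55573, and 55180 with it).

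Tests used edgeR 4.0.16 (quasi-likelihood F test, TMM factors, filterByExpr at 10 counts per library and 15 in total) in R 4.3.3 on all 20 libraries with group as the only term. The p-values are two-sided, adjusted by Benjamini-Hochberg over 16509 genes, with a threshold of 0.05. They rest on the spread between the libraries of a group, each from a pool of 2 mice. Without the block the fit takes the 20 libraries as independent, although same-numbered libraries deviated from their group means together, as given below. CPM use TMM-scaled library sizes, and log2 CPM a prior count of 2. Alternatives were other scalings and filters, DESeq2 1.42.0, limma 3.58.1 (voom), the replicate number as a block, libraries of 1 month, and libraries left out. The scripts were tested on simulated data in which 200 genes differed between Lepr+ and Lepr- HSC. There edgeR recovered 15% of changes of log2 size 1 and 72% of those of log2 size 2. Of its calls, 7.45% were genes that had not been changed. A member that did not pass can therefore still differ by such sizes.

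Same-numbered libraries deviated from their group means together (median correlation 0.264 over 30 pairs, range -0.06 to 0.56, against -0.09 over 120 pairs of different numbers), 15 of 20 lay closest to their own number, and the file names give each number 1 month. The series' text gives 2 mice to each of 5 replicates and the sample protocols 2 mice to each sample. The numbers were read as pairs on that wording, and shared mice are not stated outright.

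Members and lists were chosen with earlier results of these data known. Members are named where they pass in edgeR with or without the block, where they are among the 8 smallest p-values of a comparison, or where they have the highest mean CPM of their role. Results for some listed genes are not reported here.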

Additional observations from a re-analysis of the deposited data

Results flagged for a closer look

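Single libraries stood apart from the other 4 of their group in 12 of 164 sets of 5 values checked, which are the 40 genes and their mean in each of the 4 groups, by a test for which chance flags about 1 in 20. In Lepr- HSC this was Mx1 at 5.27 CPM in replicate 1. In Lepr+ HSC it was replicate 1 each time, with Ifit3b at 5.30, Mx2 at 10.2 and Xaf1 at 56.1 CPM above the others and Lgals3bp at 345 CPM below them. In Lepr- MPP, replicate 1 was high for Oas2 (34.2 CPM) and Ifit3 (16.7 CPM), replicate 4 low for Dtx3l (41.9 CPM) and replicate 5 low for Oasl1 (15.4 CPM). In Lepr+ MPP, replicate 4 was high for Isg15 (34.2 CPM) and Ifi35 (108 CPM) and replicate 5 high for Zbp1 (33.3 CPM).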

How the results depend on the processing

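No gene called in edgeR with or without the block changed direction in the comparison where it was called. Differences near 0 changed sign between scalings for Oasl2, Bst2 and Isg15 in MPP, Mx2 and Ifi35 between Lepr- HSC and Lepr- MPP, Lgals3bp between Lepr+ HSC and Lepr+ MPP, and Ifih1, Usp18, Dtx3l and Ifi35 in the difference of the Lepr effects. The count of members called between Lepr+ and Lepr- MPP was 0 in all 43. Between Lepr+ and Lepr- HSC the count of 1 became 0 with library sizes alone, without an expression filter, in the June libraries, in the July libraries, on the 10 libraries of the groups compared and without Lepr+ HSC replicate 5 and Lepr+ MPP replicates 4 and 5. It became 2 with the replicate block, 2 with the block and without those 3 libraries, and 4 in DESeq2 with the block. Leaving out replicates gave 0 to 1, and 0 to 2 with the block. Between Lepr- HSC and Lepr- MPP the count of 5 became 11 in DESeq2, 8 in limma voom, 15 with the replicate block, 19 in DESeq2 with the block, 0 in June, 0 in July, 10 without the 3 libraries and 18 with the block and without them. Leaving out replicates gave 1 to 9, and with the block 7 to 16, with 13 when replicate 5 was left out. Between Lepr+ HSC and Lepr+ MPP the count of 0 became 1 with the replicate block and 4 in DESeq2 with the block, with 0 on leaving out replicates and 0 to 1 with the block. The test of the difference between the Lepr effects went from 0 to 1 in DESeq2 with the block, with 0 on leaving out replicates. In edgeR the block also moved the share of all tested genes called. It rose from 0.103% to 1.02% between Lepr+ and Lepr- HSC and from 2.73% to 7.5% between Lepr- HSC and Lepr- MPP. Between Lepr+ HSC and Lepr+ MPP it rose from 0.466% to 1.77%. Shares of all genes under the other settings are not given, so those counts of members cannot be set against them. The causes of these changes were not tested, except that fits on 1 month or on 10 libraries hold fewer samples. Differences in the mean of the 40 genes stayed within 1 SD of the pair differences under all 7 alternatives run. Members with 0 counts in several libraries, Mx1 and Mx2 among them, carry SE too wide for a call at these depths.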

Other observations

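Within groups, the members differed in how closely they followed their common mean. Deviations of log2 CPM from the group means were correlated with those of the mean of the 40 genes over 20 libraries, for 10732 genes with a mean of at least 5 CPM. Each member is part of that mean, so its r is in part with itself, and members that vary most weigh most. Genes outside the list have no such share. Parp14 (r = 0.90), Sp100 (0.90), Ifit1 (0.89) and Ddx58 (0.89) followed it most closely among the 37 members ranked. Irf9 (-0.01) and Cmpk2 (0.00) did not vary with it. Rtp4 (-0.50), Ifitm3 (-0.60), Bst2 (-0.73) and Ifi35 (-0.86) ran against it. The 5 genes outside every list with the highest values were Gm8995 (0.97), Srek1 (0.97), Nipbl (0.96), Kcnq1ot1 (0.96) and Arpc1b (0.95), and 142 genes ranked above the first member. All points share the depth and the number of genes detected in each library, so these correlations are descriptions and carry no p-value.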
